A study of Mus musculus with 8 samples.

Results

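CD4+ T cells that carried PD-1 on their surface were compared with those that did not, in the livers of 5-day-old mice. The comparison rests on 4 of the 8 libraries of the study, 2 from PD-1+ and 2 from PD-1- cells, chosen by their sample titles, and on 10180 of 52997 gene symbols, those with enough counts in these 4 libraries. Both populations came from C57/Bl6 mice that lack Aire and carry a GFP reporter of Foxp3. Both were sorted from the liver as live CD45+ TCRb+ CD4+ cells without Foxp3, so that regulatory T cells were meant to be left out of either side. Each sample was a small, fixed number of double-sorted cells, per the labels, from which polyadenylated RNA was amplified before sequencing. All mice lacked Aire and the labels name no treatment, so the comparison describes 2 cell populations within Aire-deficient newborns and not the effect of Aire. The other 4 libraries, from 10-day-old mice, entered only the estimate of the spread between libraries.

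PD-1, encoded by Pdcd1, is an inhibitory receptor that T cells put on their surface after their antigen receptor has been engaged. It recruits phosphatases that dampen receptor signalling, and it is found on recently activated, exhausted, anergic and follicular helper T cells, whereas naive cells lack it. Aire makes thymic epithelial cells express genes of other tissues, and mice without it release self-reactive T cells early in life. The neonatal liver is still a site of blood formation and receives T cells that have just left the thymus.

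The 4 libraries are named here by population and by the number in their titles, 2 or 3. Pairs of values are always given for number 2 first and number 3 second. The libraries held 3019551 and 1706991 counts from PD-1- cells and 2215852 and 2365447 counts from PD-1+ cells, with 16790 to 20424 gene symbols detected. Xist had 1703 and 5 counts in PD-1- against 698 and 1 in PD-1+ cells, and genes of the Y chromosome 0 and 672 counts in PD-1- against 0 and 601 in PD-1+ cells. Number 2 was thus female and number 3 male in both populations, and a difference between the numbers cannot be told apart from one between the sexes. Within a population the 2 libraries thus came from different mice, but the labels do not say how many mice each stands for. They also do not say whether same-numbered libraries came from the same mice. The p-values therefore measure no more than how these libraries vary, which can include technical variation. The counts of the 2 libraries of a population differed by more than counting error, with a chi-square per degree of freedom of 6.5 for PD-1- and 4 for PD-1+ cells.

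At 5 days the populations differed in 3914 of the 10180 tested genes (38.4%) in edgeR's quasi-likelihood test at an adjusted p below 0.05. Of these, 1949 (19.1% of those tested) had higher levels on the PD-1+ side and 1965 (19.3%) had lower ones. By 2-fold or more, 1178 genes were higher and 1334 lower, and by 8-fold or more 251 were higher and 170 lower. The median difference over all tested genes was -0.02 on the log2 scale. Differences are given throughout as log2 fold changes of PD-1+ over PD-1- cells with their standard errors, and levels as CPM, the counts a gene would have per 1000000 counts of the library, scaled by its TMM factor. Without PD-1+ number 2, the library whose absence cost most calls, 1251 genes were higher and 1071 lower. A gene seen in 1 population alone enters the test because of that population, so that counts of called members among tested members are a description of each list. They are read against the 19.1% and 19.3% of all tested genes. Of 1214 symbols in the lists 90 are in more than 1 list, so that counts of different lists are not independent.

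**Figure D1:**
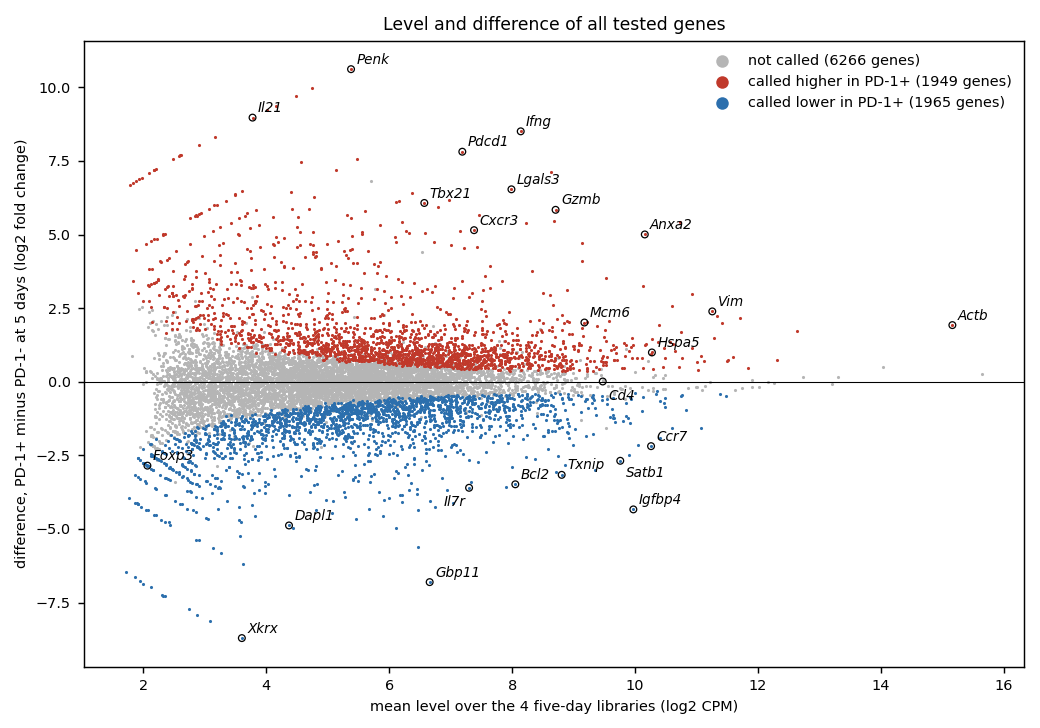
Each point is 1 of the 10180 tested genes, with its mean level over the 4 five-day libraries in log2 CPM on the horizontal axis and its log2 fold change of PD-1+ over PD-1- cells on the vertical axis. Red points are the 1949 genes called higher and blue points the 1965 called lower, with named genes circled, and the fitted values of genes with no count in 1 population, such as Penk, Il21 and Xkrx, depend on the prior count of the fit.

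Of the 3914 called genes, 3913 had both PD-1+ libraries on the same side of both PD-1- libraries. Such a separation was also seen in 34.8% of all tested genes in the upward and 36.2% in the downward direction. Within number 2 and within number 3 the ratio of PD-1+ to PD-1- levels had the same sign for all 3914 called genes. Across these genes the log2 ratios of the 2 numbers had a Pearson r of 0.936, and across all tested genes 0.818. These are descriptions across genes, which are not independent, and over called genes the choice of genes raises the value.

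**Figure D2:**
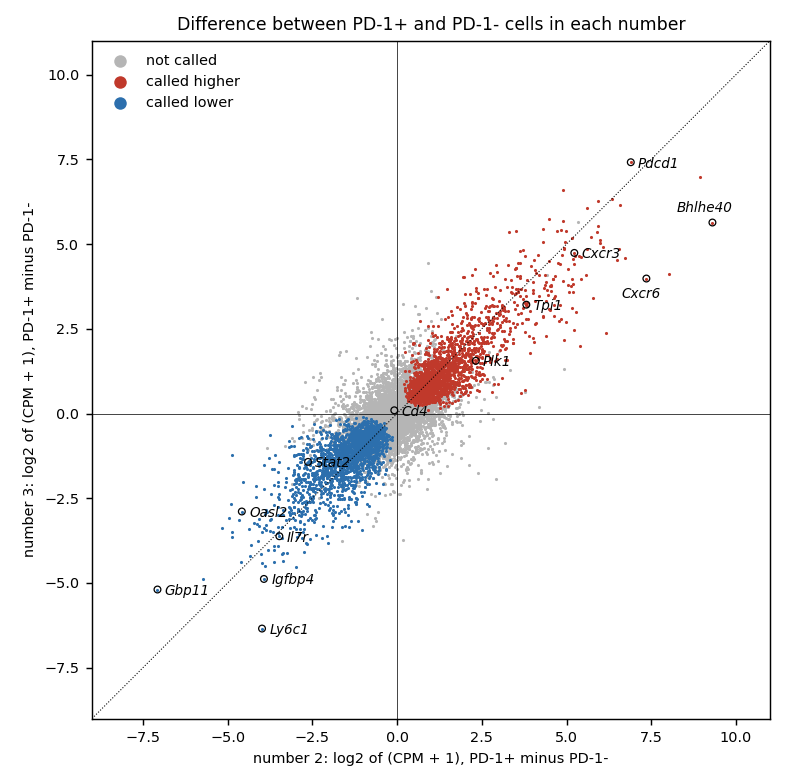
The log2 ratio of PD-1+ to PD-1- CPM, after adding 1 CPM, is plotted for every tested gene in number 2 (horizontal axis) against number 3 (vertical axis), with called genes in red (higher) and blue (lower), and equal ratios on the dotted line. Bhlhe40 and Cxcr6 lie right of the line with more counts in PD-1- number 3 than in PD-1- number 2, and Stat2 and Oasl2 lie nearer 0 in number 3.

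The sort was checked first. Pdcd1 (chr1:94038305-94052553 on GRCm38), the gene of the sorted receptor, had 5 and 1 counts in PD-1- against 615 and 564 in PD-1+ cells, or 1.63 and 0.571 CPM in PD-1- cells and 312 and 267 CPM in PD-1+ cells. Its difference of 7.81 ± 0.32, adjusted p = 7.09e-10 restates the gate and is no finding. Cd4 had 715 and 700.4 CPM in PD-1- cells and 675 and 748 CPM in PD-1+ cells, a difference of 0.01 ± 0.15 that was not called (adjusted p = 0.974). Foxp3 (chrX:7573644-7595245), the factor that defines regulatory T cells and was gated against, had 17 and 10 counts in PD-1- against 1 and 2 in PD-1+ cells. The few Foxp3 counts lay mostly in PD-1- cells (-2.85 ± 0.84, adjusted p = 0.0145), a call that ended without 3 of the libraries (adjusted p = 0.0548 without PD-1- number 2, 0.1 without PD-1+ number 2 and 0.0527 without PD-1+ number 3). Aire had 0 and 0 counts in PD-1- against 0 and 2 in PD-1+ cells, so that the mutant gene itself could not be compared.

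Of the 14 markers of CD4 T cells, 9 were not called, among them Lck (0.21 ± 0.13) and Trbc2 (-0.20 ± 0.18). Thy1, a surface glycoprotein of T cells, rose from 58 and 76.6 to 153 and 138 CPM (1.12 ± 0.24, adjusted p = 0.00199). Cd247, the zeta chain of the receptor complex, fell by 0.82 with 478 and 559 against 284 and 304 CPM (adjusted p = 0.000479). Its partners Cd3d, Cd3e and Cd3g were also called lower (-0.60 ± 0.16, -0.47 ± 0.15 and -0.49 ± 0.18), but each call ended without some library. For Cd3d these were adjusted p = 0.071 without PD-1- number 3 and 0.052 without PD-1+ number 3, for Cd3e adjusted p = 0.12 without PD-1- number 3, 0.145 without PD-1+ number 2 and 0.0668 without PD-1+ number 3, and for Cd3g adjusted p = 0.341 without PD-1- number 3, 0.116 without PD-1+ number 2 and 0.184 without PD-1+ number 3.

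Each list of markers of other cells took at most 0.225% of a library's counts. The 22 hepatocyte markers together took 0.00464% and 0.00457% of the PD-1- counts and 0.0105% and 0.00461% of the PD-1+ counts. Of 4 tested members 2 were called higher and 1 lower. Ahsg, with the smallest p of these, had 0 and 1 counts in PD-1- against 19 and 12 in PD-1+ cells. Among members with too few counts to be tested, Apoa1 had 3 and 1 against 16 and 7 counts and Ttr 2 and 1 against 21 and 3. Apob went the other way with 6 and 2 against 0 and 1, and Apoa4 and Apoc3 were at 0 in all 4 libraries. Alb, the albumin gene, had 16 and 0 counts in PD-1- against 60 and 24 in PD-1+ cells (2.72 ± 0.77, adjusted p = 0.02), a call that ended without PD-1+ number 2 (adjusted p = 0.144 without PD-1+ number 2) and a fitted value of 8.57 without PD-1- number 2, where no PD-1- count is left. The 17 erythroid markers took 0.0133% and 0.0151% against 0.0186% and 0.0184%. The 6 erythroid genes at 0 in every library included Hba-a2, Hbb-bt and Slc4a1. A 0 in the table does not show absence by itself, since mt-Co2, mt-Atp6, mt-Atp8 and mt-Nd4l, which every cell uses, were also listed at 0 in all 4 libraries, and Hba-a2 and Hbb-bt have near-identical copies. The erythroid sum held Tfrc, the transferrin receptor of dividing cells, which rose by 0.91 ± 0.17, adjusted p = 0.000544. Macrophage markers took 0.00427% and 0.0119% against 0.00659% and 0.00613%, neutrophil and mast cell markers at most 0.000464%, and platelet markers at most 0.000361%. The endothelial, stellate and biliary sum, 0.0397% and 0.033% against 0.013% and 0.0136%, was made almost wholly of Pecam1, which T cells express too.

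B and plasma cell markers took 0.0584% and 0.0725% of the counts against 0.0295% and 0.0347%. Ighm, the heavy chain of IgM, gave most of these counts, with 520.5 and 564 against 272 and 301 CPM (-0.92 ± 0.15, adjusted p = 0.000165). Of 7 tested members 0 were called higher and 2 lower, Ighm and Ighd. Ighd had 23 and 14 counts in PD-1- against 1 and 1 in PD-1+ cells, while Cd79a (-1.14 ± 0.74) was not called. The dendritic cell markers took 0.216% and 0.225% against 0.0744% and 0.0728% of the counts, and most of these counts were of Ccr7, which T cells express too. Of 9 tested dendritic markers 3 were called higher, among them Xcr1, a chemokine receptor (2 and 0 counts in PD-1- against 48 and 41 in PD-1+ cells, 5.57 ± 0.65, adjusted p = 9.11e-06, and 8.65 without PD-1- number 2), and 2 lower, and Siglech and Cd209a were at 0 in all 4 libraries. The CD8 T cell markers took 0.0172% and 0.0169% against 0.0858% and 0.0778%, mostly counts of Nkg7 in PD-1+ cells, with 2 of 4 tested members higher and 2 lower. Nkg7 (5.45 ± 0.79, adjusted p = 0.00745) and Runx3 (0.91 ± 0.23, adjusted p = 0.00588) rose. Cd8b1, a chain of the CD8 coreceptor, had 42.7 and 38.3 against 5.08 and 3.79 CPM and fell by 3.18 (adjusted p = 1.93e-05), and Cd7 fell as well (-1.64 ± 0.36, adjusted p = 0.0023). The summed NK and innate lymphoid markers, 0.00255% and 0.011% against 0.0922% and 0.0802% of the counts, were mostly Nkg7 in PD-1+ cells, which activated T cells express as well. Klra4 and Klra8, receptors of NK cells, were at 0 in all 4 libraries and Ncr1 had 0 and 11 counts in PD-1- against 0 and 1 in PD-1+ cells. The gamma-delta T cell markers took 0.0157% and 0.0197% against 0.013% and 0.0139%, with 4 of 6 tested members higher and 1 lower. The members that rose included Maf, described below, and Tcrg-C4, with 0 and 0 counts in PD-1- against 10 and 16 in PD-1+ cells. The member that fell, 5830411N06Rik, had a difference of -3.73. Trdc had too few counts to be tested, with 2 and 6 in PD-1- against 20 and 5 in PD-1+ cells. The part of these few cells or transcripts in the results below was not tested. In such bulk samples, fewer cells that express a gene and less of its RNA per cell cannot be told apart.

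**Figure D3:**
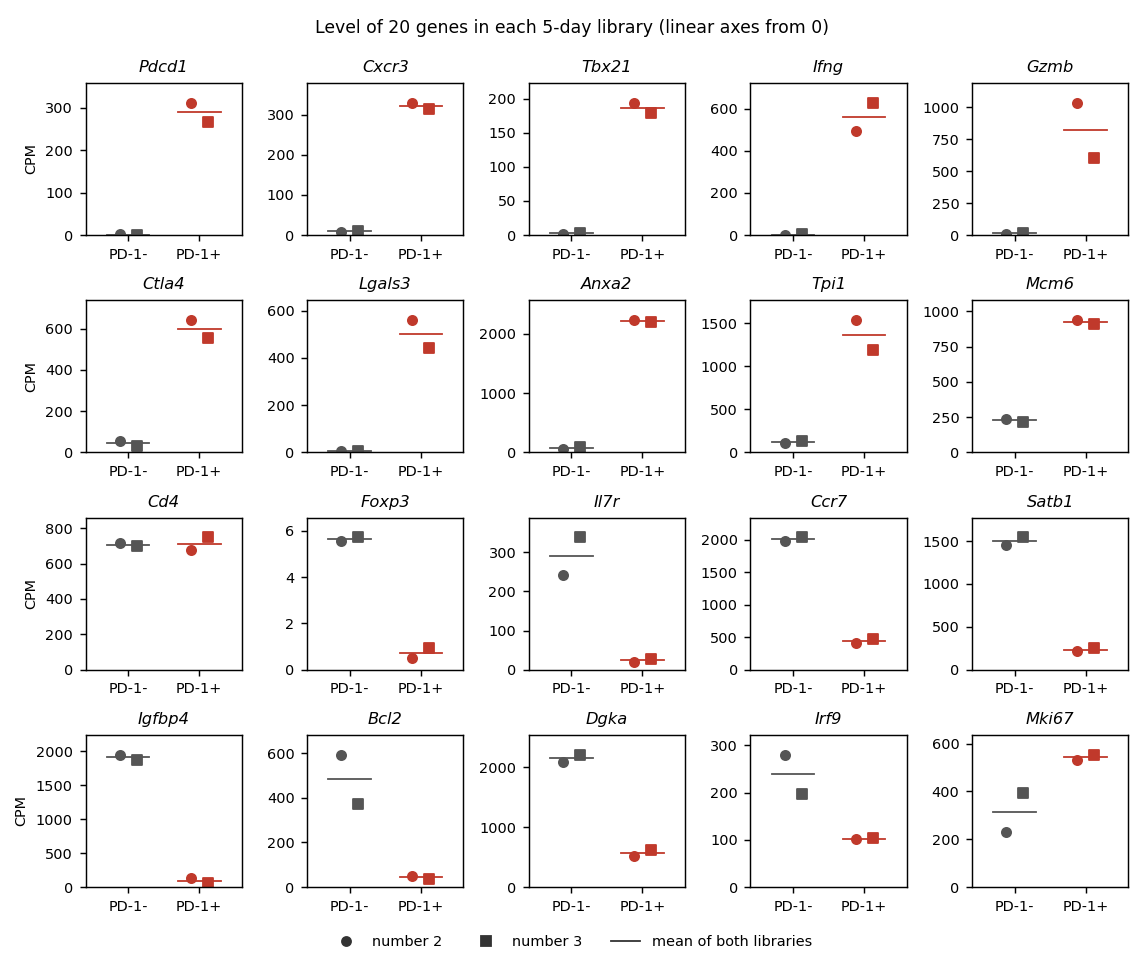
The level of 20 genes in each 5-day library is shown in CPM on linear axes from 0, with PD-1- cells in grey, PD-1+ cells in red, number 2 as circles, number 3 as squares and lines at the mean of both libraries. Cd4 overlaps between the populations, Pdcd1 to Mcm6 are higher in both PD-1+ libraries, Foxp3 to Irf9 are lower in both, and for Mki67 PD-1- number 3 lies between PD-1- number 2 and the PD-1+ libraries.

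Among tested cytokine genes most were higher in PD-1+ cells, some from no count at all, which passed the filter through PD-1+ cells alone. Of 39 listed cytokines and growth factors, 26 had enough counts, and of these 15 (57.7%) rose, 3 fell and 8 were not called, with a median difference of 3.39. Ifng (chr10:118441046-118445892), the defining cytokine of type 1 helper cells, had 0 and 7 counts in PD-1- against 972 and 1325 in PD-1+ cells, or 0 and 4 CPM in PD-1- cells and 494 and 628 CPM in PD-1+ cells (8.50 ± 0.84, adjusted p = 0.0011). Without PD-1- number 3 no Ifng count was left in PD-1- cells, and the fitted value of 13.44 then depends on the prior count. Il21, a cytokine of follicular helper and autoreactive T cells, had no count in PD-1- against 55 and 52 in PD-1+ cells, at least 36.8-fold higher. This bound and those that follow for genes that rose are set against a floor of 3 counts over both PD-1- libraries. They are scaled by total counts, without the TMM factors. Il2, the T cell growth factor, had 0 counts in PD-1- against 68 and 74 in PD-1+ cells, at least 48.8-fold higher. Il4, the type 2 helper cytokine, had 0 against 34 and 34 counts and was at least 23.4-fold higher. Both PD-1+ libraries thus held transcripts of cytokines of type 1, type 2 and follicular helper cells, of which the PD-1- libraries held 7 counts of Ifng and none of the others.

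Other secreted factors moved the same way. Penk (chr4:4133531-4138819), which encodes proenkephalin, the precursor of opioid peptides, had 0 counts in PD-1- against 187 and 147 in PD-1+ cells, at least 115-fold higher. Areg, a growth factor for epithelial repair, had 0 against 24 and 16 counts, at least 13.8-fold higher. Csf2, which encodes GM-CSF, had 0 and 1 counts in PD-1- against 93 and 94 in PD-1+ cells (7.45 ± 1.31, adjusted p = 0.00243). Il10, an anti-inflammatory cytokine, had 2 and 0 counts in PD-1- against 197 and 161 in PD-1+ cells (7.56 ± 1.29, adjusted p = 0.00983), a call that rested on both PD-1- libraries (adjusted p = 0.0873 without PD-1- number 2 and 0.0622 without PD-1- number 3). Tnfsf14, which encodes LIGHT, rose from 0.326 and 1.71 to 46.2 and 41.7 CPM (5.61 ± 0.52, adjusted p = 1.05e-06), and Angptl2, an angiopoietin-like secreted protein, from 1.63 and 1.71 to 74.6 and 115 CPM (5.79 ± 0.41, adjusted p = 4.42e-07). Il5 and Il13, further type 2 cytokines, did not pass the filter, with 0 counts in both PD-1- libraries and 40 and 10 counts for Il5 and 21 and 6 for Il13 in PD-1+ cells. Il17a had 1 and 0 counts in PD-1- against 0 and 0 in PD-1+ cells.

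The 3 secreted factors that fell were Ltb, lymphotoxin beta, with 595 and 611 against 257 and 237 CPM (-1.29 ± 0.14, adjusted p = 3.89e-06), Il16, with 229 and 221 against 116 and 99.5 CPM (-1.06 ± 0.17, adjusted p = 0.000209), and Igfbp4. Igfbp4, a binding protein of insulin-like growth factors that naive T cells express, had 1948 and 1871 CPM in PD-1- cells and 127 and 62.5 CPM in PD-1+ cells (-4.34 ± 0.35, adjusted p = 8.99e-05). Tnf (0.50 ± 0.27), Lta (0.34 ± 0.38) and Cd40lg (0.20 ± 0.21), which naive T cells also transcribe, were not called, nor was Tnfsf11, at 8.47 and 8 against 203 and 151 CPM (4.41 ± 1.31, adjusted p = 0.0625). Among chemokines 6 of 12 were tested and 3 were called higher. Cxcl10, a ligand of CXCR3, rose from 0.652 and 0.571 to 40.6 and 25.1 CPM (5.61 ± 0.59, adjusted p = 3.55e-06) and Ccl1 from 0.326 and 0 to 15.7 and 11.8 CPM (5.75 ± 0.95, adjusted p = 0.000313). Ccl3 had 0 and 2 counts in PD-1- against 57 and 228 in PD-1+ cells (7.18 ± 1.68, adjusted p = 0.0279), with no call without either PD-1- library (adjusted p = 0.173 without PD-1- number 2 and 0.104 without PD-1- number 3), and Ccl4, with 0 and 4 counts in PD-1- against 77 and 346 in PD-1+ cells, was not called (6.83 ± 2.24, adjusted p = 0.0803).

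Genes of cytotoxic granules were mostly higher in PD-1+ cells although the cells were CD4+. Of 12 tested members 9 (75.0%) rose, 0 fell, and the median was 2.67. Nkg7, a granule membrane protein, had 8.47 and 31.4 CPM in PD-1- cells and 849 and 754 CPM in PD-1+ cells (5.45 ± 0.79, adjusted p = 0.00745). Gzmb, the protease granzyme B, had 10.1 and 20 CPM in PD-1- cells and 1037 and 602 CPM in PD-1+ cells (5.84 ± 0.87, adjusted p = 0.00831), and lost its call without PD-1- number 2 (adjusted p = 0.0644 without PD-1- number 2). Fasl, the death ligand, rose from 1.96 and 6.28 to 72.1 and 75.8 CPM (4.32 ± 0.42, adjusted p = 3.43e-06). Serpinb9, which protects cells from their own granzyme B, rose from 38.1 and 36.6 to 284 and 267 CPM (2.88 ± 0.18, adjusted p = 2.27e-08). Prf1, which encodes perforin, was not called, with 4 and 8 counts in PD-1- against 4 and 28 in PD-1+ cells (1.55 ± 0.82, adjusted p = 0.163), nor was Gzma, granzyme A, at 10.8 and 32 against 118 and 78.6 CPM (2.27 ± 1.09, adjusted p = 0.179).

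Most inhibitory receptors other than PD-1 were also higher in PD-1+ cells. Of 16 tested co-inhibitory receptors besides Pdcd1, 10 (62.5%) were higher, 1 was lower and 5 were not called. Tigit, which competes for CD155, rose from 2.61 and 2.86 to 109.7 and 112 CPM (5.33 ± 0.36, adjusted p = 1.95e-07). Lag3, a ligand of MHC class II, had 2.61 and 2.86 against 99.5 and 81 CPM (5.03 ± 0.45, adjusted p = 3.47e-05). Ctla4, which takes B7 ligands away from CD28, was present in both populations and went from 54.8 and 32.6 to 641 and 556 CPM (3.75 ± 0.41, adjusted p = 0.000641). Havcr2, which encodes TIM-3, had 4 and 0 counts in PD-1- against 118 and 86 in PD-1+ cells (5.85 ± 0.89, adjusted p = 0.00308), with a fitted value of 9.85 without PD-1- number 2, where no PD-1- count is left. Entpd1, the ATP-degrading ectoenzyme CD39, rose from 2.93 and 2.29 to 70.1 and 35.1 CPM (4.26 ± 0.52, adjusted p = 7.24e-05). Pdcd1lg2, a ligand of PD-1, had 0.326 and 2.29 against 25.4 and 23.2 CPM (4.43 ± 0.63, adjusted p = 6.49e-05). Cd96 fell, with 167 and 154 against 36.5 and 57.8 CPM (-1.76 ± 0.22, adjusted p = 1.53e-05). Cd5 (0.28 ± 0.15), an inhibitory receptor that naive cells carry, was not called.

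Of 18 tested costimulatory receptors 8 (44.4%) were higher and 4 (22.2%) lower, with a median of 0.18. The share lower lies near the 19.3% of all tested genes. Of the tumour necrosis factor receptor family, the members that rose included Tnfrsf9 (4-1BB, 7.82 and 2.29 against 196 and 176 CPM, 5.04 ± 0.36, adjusted p = 1.02e-07), Tnfrsf4 (OX40, 11.1 and 17.7 against 399 and 257 CPM, 4.56 ± 0.37, adjusted p = 1.65e-05) and Tnfrsf18 (GITR, 2.85 ± 0.24, adjusted p = 8.07e-07). Icos, a receptor of helper cells, rose from 187 and 188 to 533 and 693 CPM (1.71 ± 0.16, adjusted p = 1.45e-06). Cd27 (-0.70 ± 0.15, adjusted p = 0.00179) and Tnfrsf14 (-1.51 ± 0.26, adjusted p = 0.000393), of the same family, fell, and so did Tnfrsf25 (-0.83 ± 0.25, adjusted p = 0.0155), which lost its call without some libraries (adjusted p = 0.112 without PD-1- number 2, 0.05 without PD-1+ number 2 and 0.139 without PD-1+ number 3).

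**Figure D4:**
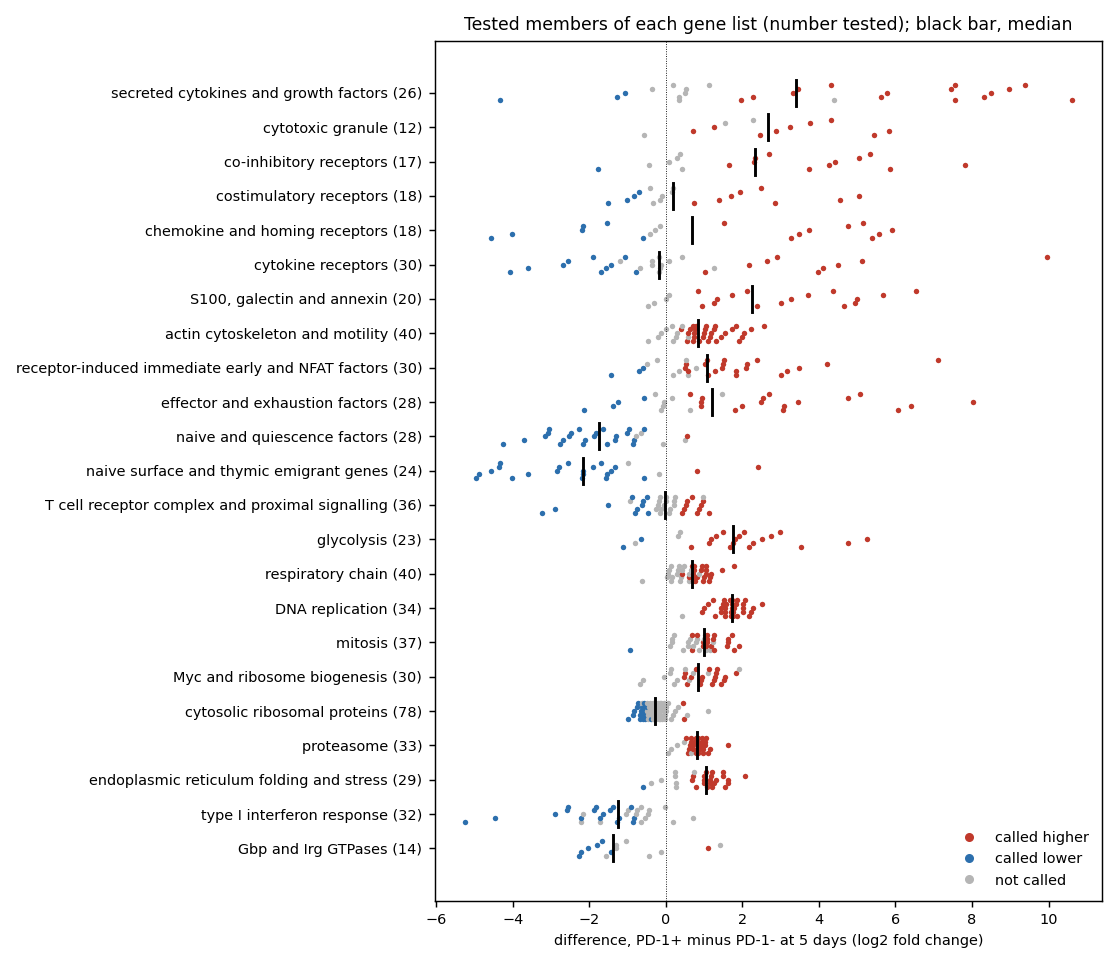
Each row is a gene list with its number of tested members, and each point is a member at its log2 fold change of PD-1+ over PD-1- cells, red where called higher, blue where called lower and grey where not called, with a black bar at the median. Medians range from -2.16 for surface genes of naive cells to 3.39 for cytokines, and lie within 0.2 of 0 for costimulatory receptors, cytokine receptors and the antigen receptor complex.

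Ccr7, for entry into lymph nodes, was lower and several receptors for inflamed tissue higher in PD-1+ cells. Of 18 tested chemokine and homing receptors 9 (50%) were higher and 6 (33.3%) lower. Cxcr3 (chrX:101731535-101734269), which follows interferon-induced chemokines, had 7.82 and 10.8 CPM in PD-1- cells and 330.0 and 316 CPM in PD-1+ cells, with the smallest p-value of the comparison (5.15 ± 0.21, adjusted p = 7.09e-10). Ccr4 rose from 3.91 and 8 to 57.4 and 68.2 CPM (3.47 ± 0.39, adjusted p = 7.35e-06) and Ccr8 from 1.96 and 2.29 to 19.8 and 21.3 CPM (3.27 ± 0.47, adjusted p = 6.55e-05). Cxcr6, a receptor of T cells that patrol the liver, had 3.26 and 28.6 against 697 and 467 CPM (5.38 ± 0.94, adjusted p = 0.0141) and lost its call without PD-1+ number 2 (adjusted p = 0.0604 without PD-1+ number 2). On the other side, Ccr7 fell from 1979 and 2036 to 407 and 474 CPM (-2.19 ± 0.24, adjusted p = 7.57e-05). S1pr1, needed to leave lymphoid organs, fell by 1.53 (adjusted p = 1.86e-06) and Ccr9, a receptor of thymocytes and gut homing cells, by 4.02 (adjusted p = 5.23e-07).

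Adhesion molecules followed a like division, with 10 of 20 (50%) higher and 5 (25%) lower. Cd44, the hyaluronan receptor of antigen-experienced cells, had 38.5 and 40 CPM in PD-1- cells and 339 and 378 CPM in PD-1+ cells (3.19 ± 0.16, adjusted p = 4.56e-09). Nrp1, neuropilin-1, rose from 8.47 and 11.4 to 212 and 279.5 CPM (4.66 ± 0.22, adjusted p = 3.74e-09), and Itga1, an integrin chain of resident T cells, from 0.652 and 0.571 to 9.65 and 11.8 CPM (adjusted p = 0.000192). Itgb1, the beta-1 integrin chain, had 120.3 and 29.7 against 3641 and 2986 CPM (5.42 ± 0.94, adjusted p = 0.0144), with no call without PD-1+ number 2 (adjusted p = 0.0605 without PD-1+ number 2). Pecam1 (-1.37 ± 0.18, adjusted p = 4.03e-05) and Itga6 (-2.08 ± 0.25, adjusted p = 1.33e-05), which mark naive T cells, fell.

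Cytokine receptors moved in both directions, with 9 of 30 (30%) higher, 10 (33.3%) lower and a median of -0.18. Il7r (chr15:9505788-9530176), the survival receptor of naive cells, had 241 and 338 CPM in PD-1- cells and 20.8 and 26.5 CPM in PD-1+ cells (-3.60 ± 0.22, adjusted p = 1.98e-08). Il2ra, the high-affinity chain for interleukin 2, rose from 8.8 and 2.86 to 119.8 and 82.4 CPM (3.99 ± 0.46, adjusted p = 1.87e-05) and Il2rb from 83.8 and 37.1 to 1163 and 958 CPM (4.10 ± 0.37, adjusted p = 0.000151). Receptors of the alarmins interleukin 18 and 33 rose, Il18rap from 6.52 and 9.71 to 285 and 267 CPM (5.13 ± 0.26, adjusted p = 4.56e-09), Il18r1 by 2.65 ± 0.25, adjusted p = 1.15e-06, and Il1rl1 from 0 counts in PD-1- cells to 119 and 95 in PD-1+ cells, at least 73.6-fold higher. Ifngr2, the signalling chain of the interferon gamma receptor, fell from 106 and 170.2 to 6.6 and 9.47 CPM (-4.08 ± 0.34, adjusted p = 3.23e-07), while Ifngr1 was not called (0.42 ± 0.17). Il6ra (-2.55 ± 0.24, adjusted p = 7.69e-06) and Il6st (-1.90 ± 0.22, adjusted p = 8.41e-06), the receptor chains for interleukin 6, and Il4ra (-1.43 ± 0.21, adjusted p = 0.000118) fell.

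Genes of naive and recently emigrated T cells were the list with the largest share called lower. Of 24 tested surface genes of that kind 20 (83.3%) fell, 2 rose and 2 were not called, with a median of -2.16. Atp1b1, a subunit of the sodium pump, had 161 and 172 against 9.14 and 7.11 CPM (-4.35 ± 0.28, adjusted p = 2.93e-08). Dapl1, a marker of naive cells, had 43 and 31.4 against 0.508 and 1.9 CPM (-4.88 ± 0.60, adjusted p = 1.83e-05) and Gpr83, an orphan receptor of naive and regulatory cells, 144 and 78.8 against 6.09 and 3.32 CPM (-4.57 ± 0.39, adjusted p = 4.28e-07). Ly6c1 had 143 and 119 against 8.12 and 0.474 CPM (-4.95 ± 0.56, adjusted p = 0.000103), with a value of -7.96 without PD-1+ number 2. Its neighbour Ly6c2 went the other way, from 7.82 and 18.3 to 66.5 and 64 CPM (2.40 ± 0.43, adjusted p = 0.001), and reads of such similar copies may be split between them. Cnn2, calponin 2, was the other member that rose (0.80 ± 0.12, adjusted p = 0.000125).

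The factors that hold T cells in the naive state fell with these genes. Of 28 tested members 23 (82.1%) fell, 1 rose and 4 were not called, with a median of -1.74. Satb1, an organiser of chromatin in thymocytes, had 1451 and 1543 CPM in PD-1- cells and 216 and 249.7 CPM in PD-1+ cells (-2.68 ± 0.17, adjusted p = 2.27e-08). Lef1 fell from 714 and 752 to 120.3 and 134 CPM (-2.52 ± 0.17, adjusted p = 3.93e-08) and Tcf7, its partner downstream of Wnt signals, from 1558 and 1687 to 245 and 338 CPM (-2.48 ± 0.29, adjusted p = 0.00039). Bach2, which represses effector genes, fell from 160.0 and 130.3 to 24.4 and 18 CPM (-2.78 ± 0.28, adjusted p = 2.80e-06) and Foxo1 by 1.34 (adjusted p = 4.50e-05). Klf2, which drives S1pr1, had 44.6 and 50.3 against 18.8 and 7.11 CPM (-1.88 ± 0.42, adjusted p = 0.00269). Txnip, a brake on glucose uptake, went from 790.1 and 815 to 85.3 and 93.8 CPM (-3.16 ± 0.17, adjusted p = 7.34e-09). Btg2, a member called higher, lost its call in all but 1 of the leave-one-out settings (0.55 ± 0.16, adjusted p = 0.0123, adjusted p = 0.0896 without PD-1- number 2, 0.0615 without PD-1+ number 2 and 0.0507 without PD-1+ number 3).

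Factors of effector cells rose as those of naive cells fell. Of 28 tested effector and exhaustion factors 17 (60.7%) were higher, 4 lower and 7 not called, with a median of 1.21, and without PD-1- number 2 or PD-1+ number 3 the number lower was 2. Tbx21 (chr11:97098071-97115331), the factor of type 1 helper cells, had 2.28 and 3.43 CPM in PD-1- cells and 194 and 179 CPM in PD-1+ cells (6.07 ± 0.39, adjusted p = 2.74e-07). Gata3, the type 2 factor that all T cells need, rose less, from 184 and 146 to 346 and 278 CPM (0.91 ± 0.18, adjusted p = 0.00122), and Bcl6, the follicular helper factor, was not called, with 11 and 15 counts in PD-1- against 11 and 26 in PD-1+ cells (0.64 ± 0.56, adjusted p = 0.393). Maf had 2.93 and 1.71 against 69 and 67.7 CPM (4.76 ± 0.41, adjusted p = 1.04e-06) and Runx2 3.58 and 1.14 against 88.8 and 92.8 CPM (5.08 ± 0.38, adjusted p = 1.24e-07). Zbtb32, a repressor induced by activation, went from 1.96 and 1.71 to 143 and 182 CPM (6.41 ± 0.36, adjusted p = 8.46e-09), and Ikzf2, which encodes Helios, from 19.9 and 25.1 to 169.6 and 199 CPM (3.05 ± 0.22, adjusted p = 9.76e-08). Tox, the factor linked to exhaustion, was not called at 56.4 and 50.9 against 67.5 and 52.6 CPM (0.16 ± 0.19, adjusted p = 0.545). Its relative Tox2 had no count in PD-1- against 26 and 30 in PD-1+ cells, at least 19.3-fold higher. Runx1 (-1.24 ± 0.19, adjusted p = 0.000151), Ikzf4 (-2.15 ± 0.56, adjusted p = 0.00739) and Irf1 (-0.57 ± 0.17, adjusted p = 0.0153) were among the members called lower. The call of Ikzf4 depended on single libraries (adjusted p = 0.0552 without PD-1- number 2 and 0.0804 without PD-1+ number 3) and so did that of Irf1 (adjusted p = 0.304 without PD-1- number 2, 0.0632 without PD-1+ number 2 and 0.114 without PD-1+ number 3).

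Targets of the antigen receptor were higher in PD-1+ cells while the receptor machinery was divided. Of 30 tested immediate early, NFAT and NF-kappaB factors 20 (66.7%) rose, 3 fell and the median was 1.08. Nr4a1, often read as a trace of recent receptor signals, had 206 and 291 CPM in PD-1- cells and 797 and 957 CPM in PD-1+ cells (1.83 ± 0.18, adjusted p = 2.58e-06), and Nr4a2 10.8 and 12.6 against 128 and 131 CPM (3.49 ± 0.19, adjusted p = 7.34e-09). Irf8 rose from 29.3 and 22.3 to 269.6 and 206 CPM (3.18 ± 0.24, adjusted p = 1.38e-07), Nfkb2 by 2.13 ± 0.18, adjusted p = 3.59e-07 and Junb by 1.48 ± 0.12, adjusted p = 3.54e-07. Bhlhe40, which supports cytokine production, had 0.326 and 13.7 against 838 and 730.5 CPM (7.12 ± 0.98, adjusted p = 0.00657), with a fitted value of 11.04 without PD-1- number 3. The 3 members called lower were Jun (-1.45 ± 0.35, adjusted p = 0.00506), Egr1 (-0.71 ± 0.24, adjusted p = 0.0276) and Nfatc3 (-0.59 ± 0.19, adjusted p = 0.0235), and without PD-1+ number 2 none of the 3 was called (adjusted p = 0.0576 without PD-1- number 2 and 0.0763 without PD-1+ number 2 for Jun, adjusted p = 0.118 without PD-1- number 3, 0.0557 without PD-1+ number 2 and 0.172 without PD-1+ number 3 for Egr1 and adjusted p = 0.135 without PD-1- number 3, 0.132 without PD-1+ number 2 and 0.0863 without PD-1+ number 3 for Nfatc3). Egr2 (0.57 ± 0.44) was not called.

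Of 36 tested members of the receptor complex and its proximal signalling 10 (27.8%) rose and 10 (27.8%) fell, with a median of -0.03. Zap70, the kinase recruited to the receptor, rose from 270.2 and 284 to 634 and 574 CPM (1.12 ± 0.15, adjusted p = 3.41e-05). Txk and Tec, kinases of the signalling cascade, fell, Txk from 466 and 431 to 62.5 and 57.8 CPM (-2.90 ± 0.24, adjusted p = 1.60e-06) and Tec from 80.2 and 72 to 8.63 and 7.58 CPM (-3.23 ± 0.30, adjusted p = 8.94e-07). Rasgrp1, which passes the signal to Ras, fell by 1.50 (adjusted p = 6.97e-06). Ptpn22 (0.87 ± 0.17, adjusted p = 0.000971) and Ubash3a (0.80 ± 0.16, adjusted p = 0.001), which dampen the signal, were among the members that rose. With 1 of the 4 libraries left out, 6 to 8 members were called higher and 7 to 10 lower.

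Feedback regulators of signalling rose in 14 of 30 (46.7%) and fell in 5 (16.7%), with a median of 1.14. Cish, a target of interleukin 2 signals, had 31 and 26.3 against 394 and 300.3 CPM (3.58 ± 0.22, adjusted p = 2.06e-08), and Rgs16, which turns off chemokine receptor signals, 4.56 and 2.29 against 61.4 and 62.1 CPM (4.05 ± 0.31, adjusted p = 1.74e-07). Dusp4, a phosphatase of MAP kinases, rose from 4.56 and 12.6 to 109 and 96.6 CPM (3.70 ± 0.38, adjusted p = 7.22e-06), and Dusp14, of the same family, from 0 counts to 101 and 76, at least 60.9-fold higher. Dusp10 fell (-1.84 ± 0.18, adjusted p = 2.34e-06), as did Pim2 (-1.32 ± 0.20, adjusted p = 0.000129), and without PD-1+ number 2 the list had 3 members called lower.

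Genes linked to anergy, the unresponsive state of T cells that met antigen without help, rose in 9 of 19 (47.4%) and fell in 4 (21.1%). The median was 0.57, and the share lower lies near the 19.3% of all tested genes. Nt5e, the ectoenzyme CD73, rose from 14 and 6.28 to 44.7 and 58.7 CPM (2.26 ± 0.33, adjusted p = 0.000122) and Rnf128, the ubiquitin ligase GRAIL, from 0.326 and 0 to 12.7 and 14.2 CPM (5.71 ± 0.76, adjusted p = 3.44e-05). Izumo1r, which encodes folate receptor 4 and with CD73 marks anergic CD4 cells, was not called, at 107 and 97.7 against 84.3 and 95.2 CPM (-0.19 ± 0.16, adjusted p = 0.377). Dgka, an inhibitor of receptor signalling that is high in anergic and in naive cells, fell from 2093 and 2207 to 522 and 612 CPM (-1.92 ± 0.15, adjusted p = 1.38e-07). Without PD-1- number 2 the list had 2 members called lower and without PD-1+ number 2 it had 1.

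Of 19 tested genes known from regulatory T cells 13 (68.4%) rose and 4 fell, and the median was 3.05, although Foxp3 itself was nearly absent from PD-1+ cells. The members that rose included Nrp1, Ikzf2, Tnfrsf18, Capg (1.71 ± 0.18, adjusted p = 4.21e-06) and Ctla4, which activated conventional T cells can express too. The 4 that fell were Gpr83, Foxp3, Ikzf4 and Foxo1. Why 13 members rose and 4 fell was not tested. Without PD-1- number 2 and without PD-1+ number 3 the list had 2 members called lower. Genes of innate-like and NKT cells rose in 8 of 13 tested members (61.5%) and fell in 1 (7.69%). The members that rose included Il18r1, Icos and Il2rb, which were described above with other lists. Zbtb16, which defines NKT and other innate-like T cells, had 0 and 0 counts in PD-1- against 2 and 5 in PD-1+ cells, too few to be tested.

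Genes of proteins that link membranes, calcium and the cytoskeleton rose broadly. Of 20 tested S100 proteins, galectins and annexins 16 (80.0%) rose, 0 fell and the median was 2.25. Lgals3 (chr14:47367751-47386160), galectin-3, had 5.87 and 4.57 CPM in PD-1- cells and 560.5 and 443 CPM in PD-1+ cells (6.53 ± 0.33, adjusted p = 4.88e-08), and Lgals1 144 and 281 against 2106 and 1934 CPM (3.26 ± 0.31, adjusted p = 0.00014). Anxa2, an annexin that binds S100a10, rose from 51.2 and 89.1 to 2230 and 2196 CPM (5.00 ± 0.25, adjusted p = 1.06e-07) and S100a10 from 142 and 175 to 588 and 781 CPM (2.11 ± 0.19, adjusted p = 8.51e-07). S100a6 had 3.91 and 10.8 against 334 and 353 CPM (5.67 ± 0.38, adjusted p = 3.19e-06) and S100a4 1.3 and 4.57 against 83.3 and 77.2 CPM (4.94 ± 0.40, adjusted p = 4.42e-07). Vim, vimentin, and Ahnak, a giant scaffold protein, rose by 2.39 ± 0.13, adjusted p = 7.34e-09 and 3.01 ± 0.18, adjusted p = 1.50e-08. The libraries of the 2 populations did not overlap for any of these 8 genes, as for 3913 of all 3914 called genes. The same was seen upward in 34.8% of all tested genes.

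Of 40 genes of the actin cytoskeleton 30 (75.0%) rose, 0 fell and the median was 0.83. Actb (chr5:142903115-142906754), beta-actin, had 15250 and 15290 CPM in PD-1- cells and 60000 and 55860 CPM in PD-1+ cells (1.92 ± 0.11, adjusted p = 1.14e-08) and alone took 1.55% and 1.57% of the counts of PD-1- cells and 5.33% and 4.98% of those of PD-1+ cells. Actg1, gamma-actin, had 462 and 426 against 2601 and 2696 CPM (2.58 ± 0.13, adjusted p = 4.20e-09). Lcp1, which bundles filaments, Pfn1, which loads actin monomers, and Tmsb4x, which stores them, rose by 2.22 ± 0.15, adjusted p = 3.85e-08, 2.00 ± 0.14, adjusted p = 5.73e-08 and 1.74 ± 0.14, adjusted p = 1.95e-07. Msn (-0.20 ± 0.13) and Ezr (0.26 ± 0.15), which anchor filaments to the membrane, were not called. The list took 4.32% and 4.36% of PD-1- counts and 10.5% and 10.2% of PD-1+ counts, a measure in which the shares of all genes sum to a fixed total.

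**Figure D5:**
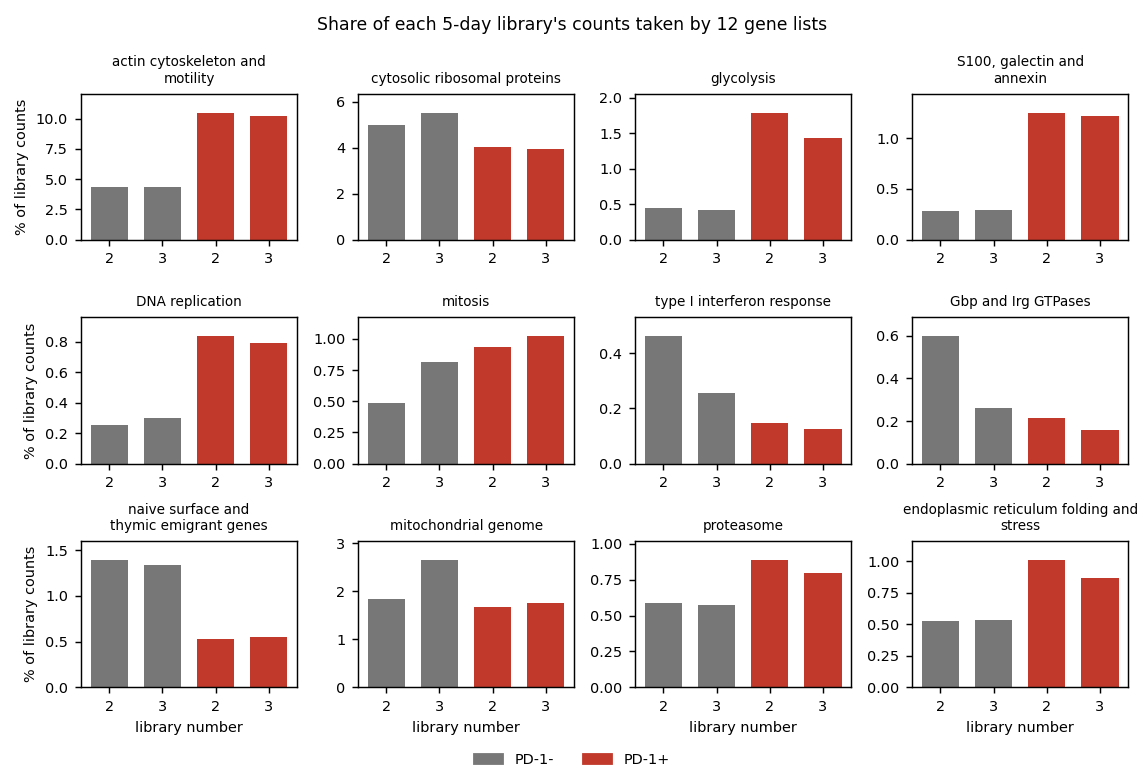
Bars give the percentage of each library's counts taken by all listed genes of 12 lists, with PD-1- libraries in grey and PD-1+ libraries in red, numbers 2 and 3 side by side, and a linear axis from 0 in each panel. Actin genes take 4.32% to 4.36% of PD-1- and 10.2% to 10.5% of PD-1+ counts, while for mitosis PD-1- number 3 (0.816%) and for interferon genes PD-1- number 2 (0.461%) stand off from the other PD-1- library.

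Enzymes of glycolysis rose at nearly every step. Of 23 tested genes 18 (78.3%) were higher, 2 lower and 3 not called, and the median was 1.74. Hk2, the inducible hexokinase that starts the pathway, had 1 and 4 counts in PD-1- against 93 and 81 in PD-1+ cells (5.25 ± 0.69, adjusted p = 4.34e-05), and Slc2a1, the glucose transporter GLUT1, rose by 1.49 ± 0.25, adjusted p = 0.000261. Tpi1 had 108 and 127 against 1535 and 1184 CPM (3.54 ± 0.17, adjusted p = 4.12e-09), Aldoa 452 and 418 against 4047 and 2843 CPM (2.98 ± 0.16, adjusted p = 7.34e-09) and Pgk1 50.5 and 42.3 against 359 and 274 CPM (2.76 ± 0.19, adjusted p = 5.89e-08). At the end of the pathway Ldha, which makes lactate, rose from 1201 and 1215 to 5830 and 5040 CPM (2.17 ± 0.13, adjusted p = 1.30e-08), and Slc16a3, which exports it, from 8.8 and 5.71 to 264 and 144 CPM (4.75 ± 0.38, adjusted p = 7.82e-07). The other subunit of the enzyme, Ldhb, fell (-1.11 ± 0.29, adjusted p = 0.00743), with no call without PD-1+ number 3. Pdk1, an inhibitor of pyruvate dehydrogenase, fell too (-0.65 ± 0.17, adjusted p = 0.00752), with no call without PD-1- number 2 or PD-1+ number 3. Hif1a, a factor that drives many of these genes, had 142 and 152 against 611 and 548 CPM (1.98 ± 0.15, adjusted p = 1.58e-07). In both numbers every enzyme named here from Hk2 to Ldha was higher in PD-1+ cells, and all 3914 called genes likewise kept 1 direction in both numbers.

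Nuclear genes of the respiratory chain rose by less. Of 40 tested genes 22 (55.0%) were higher, 0 lower, and the median was 0.69, with Atp5b at 1241 and 1185 against 2779 and 2571 CPM (1.14 ± 0.12, adjusted p = 3.63e-06) and Sdhb at 175 and 212 against 411 and 394 CPM (1.06 ± 0.15, adjusted p = 6.88e-05). Genes of the mitochondrial genome did not follow them, with 0 of 8 higher and 3 lower. The largest difference among the called ones was that of mt-Nd4, at 1274 and 2019 against 1033 and 1082 CPM (-0.64 ± 0.17, adjusted p = 0.0107), where PD-1- number 3 was the high library (adjusted p = 0.223 without PD-1- number 3, 0.0896 without PD-1+ number 2 and 0.0556 without PD-1+ number 3). Without PD-1- number 3, PD-1+ number 2 or PD-1+ number 3 none of the 8 was called, and without PD-1- number 2 there were 5. Of 26 genes of cholesterol and fatty acid synthesis 7 were higher, 1 lower and 18 not called, with a median of 0.13. Lss, lanosterol synthase, rose from 16.3 and 20 to 66 and 36 CPM (1.50 ± 0.35, adjusted p = 0.0038, adjusted p = 0.0971 without PD-1+ number 2), and Elovl6, which lengthens fatty acids, fell from 62.9 and 42.9 to 14.2 and 27 CPM (-1.36 ± 0.33, adjusted p = 0.00477, adjusted p = 0.0609 without PD-1- number 2 and 0.0811 without PD-1+ number 2). In this list 2 members were called higher without PD-1- number 2 and 2 without PD-1+ number 2, and 3 without PD-1+ number 3.

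Genes of DNA replication were higher in PD-1+ cells almost without exception. Of 34 tested genes 33 (97.1%) rose, 0 fell and only Cdt1 was not called (0.43 ± 0.25), with a median of 1.72, and with any 1 of the libraries left out 31 to 33 were called. Mcm6, a subunit of the replicative helicase, had 240.2 and 218 CPM in PD-1- cells and 939 and 911 CPM in PD-1+ cells (2.01 ± 0.15, adjusted p = 9.50e-08), and its partner Mcm5 172 and 194 against 797 and 668 CPM (2.00 ± 0.16, adjusted p = 2.86e-07). Rrm2, the regulated subunit of ribonucleotide reductase, rose from 227 and 364 to 1244 and 1221 CPM (2.07 ± 0.20, adjusted p = 3.95e-06) and Tk1, thymidine kinase, by 2.28 ± 0.26, adjusted p = 7.25e-06. Uhrf1, which brings DNA methylation to new strands, had 73.7 and 91.4 against 288 and 269.6 CPM (1.76 ± 0.17, adjusted p = 1.86e-06). The libraries of the populations stood apart for each of these genes, as for 3913 of all 3914 called genes. Within PD-1- cells number 3 was the higher for Rrm2.

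Genes of mitosis were also higher in PD-1+ cells, and how many were called depended on the libraries and the fit. Of 37 tested genes 19 (51.4%) rose, 1 fell and 17 were not called, with a median of 1.00. Plk1, a kinase of mitotic entry, had 45.3 and 82.8 against 230.5 and 245 CPM (1.92 ± 0.37, adjusted p = 0.00429), Aurka 21.5 and 49.7 against 118 and 111 CPM (1.73 ± 0.32, adjusted p = 0.000733) and Hmgb2 181 and 292 against 719.9 and 739.5 CPM (1.63 ± 0.22, adjusted p = 0.000141). Mki67, the antigen Ki-67, at 231 and 394 against 532 and 554 CPM (0.80 ± 0.33, adjusted p = 0.0926), and Top2a, at 622 and 1180 against 1417 and 1498 CPM (0.70 ± 0.29, adjusted p = 0.101), were not called. In PD-1- cells both were higher in number 3 than in number 2, and the list took 0.487% and 0.816% of PD-1- counts against 0.935% and 1.02% of PD-1+ counts. Without PD-1- number 3, 30 members were called higher, and without PD-1- number 2, PD-1+ number 2 or PD-1+ number 3, 11, 13 and 11. With the replicate number as a block, 31 members were called higher, and with the 5-day libraries alone 28. In each number Mki67 and Top2a had their higher CPM in the PD-1+ library, and with the block both were called higher (adjusted p = 0.000651 and 0.00201). Smc4, a condensin subunit, was the member that fell, from 903 and 1176 to 526 and 563 CPM (-0.93 ± 0.14, adjusted p = 0.00014).

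Of 22 tested regulators of entry into the cycle 9 (40.9%) were higher and 4 (18.2%) lower, the latter near the 19.3% of all tested genes. Cdkn1a, the inhibitor p21, had 3.58 and 6.28 CPM in PD-1- cells and 198 and 112 CPM in PD-1+ cells (5.04 ± 0.40, adjusted p = 8.20e-07), while Cdkn1b, the inhibitor p27 of resting cells, fell from 214 and 215 to 81.2 and 74.4 CPM (-1.46 ± 0.17, adjusted p = 7.42e-06). Cdk4 (1.10 ± 0.16, adjusted p = 7.08e-05), Ccne1 (1.18 ± 0.22, adjusted p = 0.000743) and E2f3 (2.31 ± 0.37, adjusted p = 0.000168), which push cells into replication, rose. Without PD-1+ number 3 the list had 2 members called lower.

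The windows of 250 bases before the start of the replication genes were searched for the 8-letter sites of E2F factors, which control such genes. The letters searched were TTTGGCGC, TTTCGCGC, TTTCCCGC and TTTGCCGC on both strands, and overlapping matches were counted each. One of these was found in 7 of 33 windows (21.2%) of the replication list and in 2 of 33 (6.06%) of the mitosis list, against 1.86% of all 32851 windows of that length. The match does not set genes apart by direction here, as 33 of 34 tested replication genes rose, among them all 7 with a match. Of these, the windows of Mcm6 and Uhrf1 are shown because both genes were described above, from RefSeq on GRCm38.p6, 5′ to 3′ along the gene, with matches in capitals. The first capital run of Mcm6 holds 2 overlapping matches on opposite strands. A match is a description of the letters and not a binding site.
Mcm6 (chr1:128359706-128359955, minus strand): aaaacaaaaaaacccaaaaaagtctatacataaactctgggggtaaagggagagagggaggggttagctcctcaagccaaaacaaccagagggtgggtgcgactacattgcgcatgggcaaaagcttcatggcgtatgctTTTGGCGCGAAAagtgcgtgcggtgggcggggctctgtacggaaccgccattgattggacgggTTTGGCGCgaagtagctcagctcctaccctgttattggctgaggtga
Uhrf1 (chr17:56304063-56304312, plus strand): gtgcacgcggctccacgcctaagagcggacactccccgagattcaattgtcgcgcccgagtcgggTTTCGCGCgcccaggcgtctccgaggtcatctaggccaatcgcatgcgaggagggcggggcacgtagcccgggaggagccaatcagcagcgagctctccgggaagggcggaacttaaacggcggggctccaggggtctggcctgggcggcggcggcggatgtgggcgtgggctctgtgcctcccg

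The machinery that makes, folds and breaks down proteins rose in PD-1+ cells, apart from the ribosome itself. Of 30 tested Myc and ribosome biogenesis genes 18 (60.0%) rose and 0 fell, with Myc at 50.9 and 46.9 against 156 and 125 CPM (1.52 ± 0.22, adjusted p = 6.80e-05) and Nop58, a core protein of small nucleolar complexes, at 163 and 189 against 406 and 359.6 CPM (1.12 ± 0.16, adjusted p = 5.10e-05). Of 27 tRNA synthetases and other targets of ATF4, 19 (70.4%) rose and 2 fell. Psat1 (1.97 ± 0.17, adjusted p = 5.51e-07) and Phgdh (1.91 ± 0.20, adjusted p = 3.00e-06), of serine synthesis, and Asns, asparagine synthetase (3.14 ± 0.46, adjusted p = 7.73e-05), were among those that rose. Ddit3, which encodes the stress factor CHOP and is also a target of ATF4, fell from 41.7 and 65.7 to 22.3 and 22.3 CPM (-1.25 ± 0.31, adjusted p = 0.00495), a call that ended without PD-1- number 3 (adjusted p = 0.0572 without PD-1- number 3).

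Ribosomal protein genes leaned the other way. Of 78 tested genes 2 (2.56%) rose, 18 (23.1%) fell and 58 were not called, with a median of -0.29 and a share of 4.98% and 5.53% of PD-1- counts against 4.02% and 3.95% of PD-1+ counts. The share called lower lies near the 19.3% of all tested genes, and the share called higher below the 19.1%. Rps14 had 1065 and 1237 against 707 and 677 CPM (-0.73 ± 0.14, adjusted p = 0.000679) and Rps27 342 and 442 against 219 and 209.9 CPM (-0.87 ± 0.18, adjusted p = 0.00126). The median stayed negative with RLE size factors (-0.27) and with upper-quartile factors (-0.36). Without PD-1- number 3, the library with the highest share, 8 members were called lower, and 8 and 9 without PD-1+ number 2 and PD-1+ number 3. Many of these genes have near-identical processed copies, so their counts depend on how shared reads were handled.

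Proteasome subunits rose in 28 of 33 tested genes (84.8%) and fell in 0, with a median of 0.80. Psmc1, an ATPase of its cap, had 55.7 and 46.9 against 159.9 and 160.1 CPM (1.63 ± 0.19, adjusted p = 1.11e-05) and Psmd13 154 and 165 against 326 and 317 CPM (1.02 ± 0.15, adjusted p = 7.45e-05). Psme2 (0.46 ± 0.19), of the activator induced by interferon gamma, was not called. Cytosolic chaperones rose in 15 of 24 and fell in 1, among them Hspd1 (1.61 ± 0.17, adjusted p = 4.65e-06) and the chaperonin subunit Cct7 (1.03 ± 0.14, adjusted p = 3.37e-05), and Dnajb1, a heat shock gene, fell (-0.70 ± 0.15, adjusted p = 0.0016). The inducible heat shock genes Hspa1a (-1.08 ± 0.51) and Hspa1b (-1.70 ± 0.65) were not called.

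Of 29 tested genes of protein folding in the endoplasmic reticulum 21 (72.4%) rose, 1 fell and the median was 1.06. Hspa5, the chaperone BiP, had 846 and 807 CPM in PD-1- cells and 1812 and 1483 CPM in PD-1+ cells (0.99 ± 0.14, adjusted p = 7.57e-05). Hsp90b1, its partner GRP94, rose from 339.6 and 416 to 1148 and 992 CPM (1.50 ± 0.17, adjusted p = 5.42e-06) and Pdia6, a disulfide isomerase, from 121 and 113 to 381 and 299 CPM (1.54 ± 0.16, adjusted p = 4.10e-06). Xbp1, a factor of the unfolded protein response, rose from 84.1 and 97.1 to 233 and 181 CPM (1.20 ± 0.19, adjusted p = 0.000187), whereas its target Dnajb9 was called lower (-0.59 ± 0.18, adjusted p = 0.015), with no call without any 1 of 3 libraries (adjusted p = 0.0978 without PD-1- number 3, 0.1 without PD-1+ number 2 and 0.0535 without PD-1+ number 3). The response element known from such genes has the letters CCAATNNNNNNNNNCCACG. On both strands it was found in the 250 bases before 8 of 23 genes of the list with a window (34.8%), against 0.113% of all 32851 windows. Of these 8 genes 6 were called higher and 2 were not called, beside 21 of 29 called higher in the whole list. The windows of Hspa5, Hsp90b1 and Pdia6 are shown because these 3 genes rose together, from RefSeq on GRCm38.p6, 5′ to 3′ along the gene, with the element in capitals. Hsp90b1 holds the element on both strands.
Hspa5 (chr2:34771840-34772089, plus strand): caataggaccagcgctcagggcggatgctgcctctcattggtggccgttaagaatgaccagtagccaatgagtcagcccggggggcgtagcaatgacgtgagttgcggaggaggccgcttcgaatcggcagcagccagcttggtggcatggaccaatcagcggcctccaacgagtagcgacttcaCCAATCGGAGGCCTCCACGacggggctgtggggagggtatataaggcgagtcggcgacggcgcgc
Hsp90b1 (chr10:86705445-86705694, minus strand): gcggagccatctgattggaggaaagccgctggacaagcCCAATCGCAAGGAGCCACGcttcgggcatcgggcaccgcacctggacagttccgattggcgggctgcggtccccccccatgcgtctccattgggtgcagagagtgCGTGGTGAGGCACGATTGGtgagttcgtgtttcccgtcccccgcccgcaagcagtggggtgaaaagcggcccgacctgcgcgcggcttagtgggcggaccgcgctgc
Pdia6 (chr12:17266339-17266588, plus strand): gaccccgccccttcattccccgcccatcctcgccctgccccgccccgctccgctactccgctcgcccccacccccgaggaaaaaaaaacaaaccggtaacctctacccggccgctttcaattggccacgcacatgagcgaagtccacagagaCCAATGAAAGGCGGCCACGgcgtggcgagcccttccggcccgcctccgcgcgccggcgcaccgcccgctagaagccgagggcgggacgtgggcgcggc

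Genes induced by interferons were lower in PD-1+ cells, and here PD-1- number 2 stood off from the other libraries. Of 32 tested genes of the type I response 0 rose, 17 (53.1%) fell and 15 were not called, with a median of -1.25. Ddx58, the RNA sensor RIG-I, had 203 and 154 CPM in PD-1- cells and 51.8 and 55.9 CPM in PD-1+ cells (-1.73 ± 0.20, adjusted p = 7.69e-06). Irf9, a DNA-binding factor of the type I signal, had 280.3 and 198 against 102 and 104 CPM (-1.22 ± 0.21, adjusted p = 0.000363), and Stat2, its partner, fell from 244 and 96 to 38.6 and 35.1 CPM (-2.22 ± 0.38, adjusted p = 0.00142), by 1.38 without PD-1- number 2. Oasl2, of the family of antiviral oligoadenylate synthetases, had 95.8 and 24 against 3.05 and 2.37 CPM (-4.47 ± 0.92, adjusted p = 0.00731) and lost its call without either PD-1+ library (adjusted p = 0.0744 without PD-1+ number 2 and 0.0718 without PD-1+ number 3). Isg15 (-0.46 ± 0.61) and Ifit1 (-2.22 ± 0.89), classical members of the response, were not called. The list took 0.461% and 0.254% of PD-1- counts and 0.148% and 0.127% of PD-1+ counts. Without PD-1- number 2 there were 10 members called lower, without PD-1- number 3 there were 23, and without PD-1+ number 2 or number 3 there were 14 and 10. In each of these settings 0 were called higher.

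The GTPases of the Gbp and Irg families, which defend cells against intracellular pathogens and answer to interferon gamma, had a like pattern. Of 14 tested members 6 (42.9%) fell, 1 rose and 7 were not called, with a median of -1.38. Gbp9 fell from 258 and 158 to 44.2 and 46.4 CPM (-2.21 ± 0.23, adjusted p = 4.17e-06), Gbp8 from 203 and 116 to 45.2 and 33.6 CPM (-2.03 ± 0.28, adjusted p = 0.000113) and Irgm2 from 149 and 94.3 to 36 and 34.1 CPM (-1.80 ± 0.28, adjusted p = 0.000163). Gbp11 (chr5:105323042-105346472), not in the list, had 269.9 and 122 CPM in PD-1- cells and 1.01 and 2.37 CPM in PD-1+ cells, the largest fitted fall among all tested genes with counts in both populations (-6.81 ± 0.53, adjusted p = 1.86e-06). Gbp5, from 27.4 and 15.4 to 51.3 and 43.6 CPM, was called higher (1.11 ± 0.40, adjusted p = 0.039), and lost the call without 3 of the libraries (adjusted p = 0.179 without PD-1- number 3, 0.172 without PD-1+ number 2 and 0.0829 without PD-1+ number 3). These genes are close copies that can share reads. PD-1- number 2 held 0.598% of its counts in the list, PD-1- number 3 0.259% and the PD-1+ libraries 0.214% and 0.158%, and without PD-1- number 2 there were 5 members called lower and without PD-1- number 3 there were 10.

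The interferon-stimulated response element, searched as GAAANNGAAA on both strands, was found in 14 of 34 windows (41.2%) of the type I list and in 9 of 10 (90%) of the Gbp and Irg list, against 2.98% of all 32851 windows. Of 9 tested type I genes with the element 5 were called lower and 4 not called, beside 17 of 32 lower in the whole list. Of 9 tested Gbp and Irg genes with it 4 were called lower, 1 higher and 4 not called, beside 6 of 14 lower in the whole list. The windows of Trim30a, which fell (232 and 167 against 75.7 and 53.5 CPM, -1.63 ± 0.22, adjusted p = 4.97e-05), Irgm2, which fell, and Gbp5, which was called higher, are shown because genes that hold the element differed in direction. They come from RefSeq on GRCm38.p6, 5′ to 3′ along the gene, with the element in capitals.
Trim30a (chr7:104465194-104465443, minus strand): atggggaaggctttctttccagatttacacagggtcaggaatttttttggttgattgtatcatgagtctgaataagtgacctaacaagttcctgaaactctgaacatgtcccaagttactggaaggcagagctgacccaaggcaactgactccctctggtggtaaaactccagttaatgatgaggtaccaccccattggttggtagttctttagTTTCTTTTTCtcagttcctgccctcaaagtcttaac
Irgm2 (chr11:58214727-58214976, plus strand): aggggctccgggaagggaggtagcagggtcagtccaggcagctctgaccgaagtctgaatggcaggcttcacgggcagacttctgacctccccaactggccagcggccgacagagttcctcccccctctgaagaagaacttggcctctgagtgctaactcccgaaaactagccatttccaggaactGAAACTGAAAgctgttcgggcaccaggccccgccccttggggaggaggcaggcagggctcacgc
Gbp5 (chr3:142496684-142496933, plus strand): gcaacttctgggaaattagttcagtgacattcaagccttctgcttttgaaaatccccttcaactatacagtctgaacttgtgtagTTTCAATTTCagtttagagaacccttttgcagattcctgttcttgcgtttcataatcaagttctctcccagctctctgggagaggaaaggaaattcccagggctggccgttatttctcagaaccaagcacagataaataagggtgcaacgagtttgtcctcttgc

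Gimap GTPases, which sustain naive T cells, fell in 4 of 8 and rose in 0, in each leave-one-out setting. Gimap6 had 1694 and 1759 against 409.7 and 377 CPM (-2.13 ± 0.14, adjusted p = 2.90e-08) and Gimap3 1386 and 1176 against 501 and 513 CPM (-1.34 ± 0.16, adjusted p = 1.17e-05), while Gimap4 (-0.24 ± 0.15) and Gimap5 (0.28 ± 0.17) were not called. MHC class I genes and their loading machinery were mostly not called, with 4 of 20 (20%) higher and 3 (15%) lower, near the shares of all tested genes. H2-K1 (-0.18 ± 0.13), a class I heavy chain, was among the 13 not called, and Psmb8, an immunoproteasome subunit, rose (0.96 ± 0.17, adjusted p = 0.000444). Without PD-1- number 2 the list had 0 members called lower, without PD-1- number 3 it had 5, and 2 and 1 without PD-1+ number 2 and PD-1+ number 3.

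Genes of survival and death moved in both directions. Bcl2, the survival factor of naive cells, had 593 and 374 CPM in PD-1- cells and 51.3 and 35.5 CPM in PD-1+ cells (-3.48 ± 0.24, adjusted p = 2.36e-07). Bcl2l1, which encodes Bcl-xL, rose instead from 45.6 and 37.7 to 217 and 195 CPM (2.29 ± 0.22, adjusted p = 1.41e-06) and Bcl2a1b from 1.96 and 1.71 to 48.2 and 50.2 CPM (4.69 ± 0.41, adjusted p = 6.18e-07), the latter 1 of several similar copies. Bcl2l11, the death inducer Bim, was higher by 0.95 ± 0.18, adjusted p = 0.000788 and Pmaip1, the death inducer Noxa, by 3.18 ± 0.35, adjusted p = 5.80e-06. Mcl1 (-1.19 ± 0.16, adjusted p = 3.34e-05) and Cflar (-1.06 ± 0.17, adjusted p = 0.000171), which protect cells, fell with Fas, the death receptor (-1.46 ± 0.24, adjusted p = 0.000201), although its ligand rose. In all 13 of 27 tested members (48.1%) were higher and 4 (14.8%) lower, the latter below the 19.3% of all tested genes.

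Genes of DNA methylation and polycomb complexes were called about as often as all tested genes, with 5 of 23 (21.7%) higher and 6 (26.1%) lower against 19.1% and 19.3%. Dnmt1, which copies methylation at replication, rose from 197 and 194 to 455 and 478 CPM (1.25 ± 0.14, adjusted p = 7.35e-06). Tet3 (-1.48 ± 0.17, adjusted p = 9.86e-06) and Tet1 (-1.95 ± 0.36, adjusted p = 0.00056), which oxidise methylated cytosine, fell, as did Ezh1, the histone methyltransferase of resting cells (-1.53 ± 0.25, adjusted p = 0.000232), while Dnmt3a (0.12 ± 0.20) was not called. Of this list 3 members were called higher without PD-1- number 2 and 3 without PD-1+ number 2. The same held for lysosomal genes, with 7 of 29 (24.1%) higher and 6 (20.7%) lower. Lgmn, the protease legumain, fell from 92.6 and 92 to 10.7 and 9.47 CPM (-3.19 ± 0.28, adjusted p = 5.40e-07) and Npc2, a cholesterol carrier, from 918 and 919.8 to 259.9 and 253 CPM (-1.84 ± 0.17, adjusted p = 8.14e-07), while Ctsd and Ctsb, cathepsins D and B, rose (0.73 ± 0.17, adjusted p = 0.00332 and 0.73 ± 0.18, adjusted p = 0.00634). Without PD-1- number 2 there were 3 lysosomal genes called higher, and 4 and 4 without PD-1+ number 2 and PD-1+ number 3. Fetal and neonatal genes were hard to detect, with 5 of 20 tested, 1 of them called higher and 1 lower, and Lin28b had 8 and 7 counts in PD-1- against 13 and 3 in PD-1+ cells. H19, an imprinted fetal RNA, had 0 and 2 counts in PD-1- against 12 and 16 in PD-1+ cells (3.83 ± 1.07, adjusted p = 0.0107), a call that ended without either of 2 libraries (adjusted p = 0.118 without PD-1- number 2 and 0.0514 without PD-1+ number 3), with a fitted value of 7.10 without PD-1- number 3, and 2.53 without PD-1- number 2. Plag1, a zinc finger transcription factor, fell from 37.2 and 48.6 to 6.09 and 4.74 CPM (-2.97 ± 0.37, adjusted p = 2.07e-05).

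Several of the largest differences have not been described so far. Among genes that rose, Cysltr1, a receptor for cysteinyl leukotrienes, had 0 counts in PD-1- against 91 and 34 in PD-1+ cells, at least 43-fold higher, and Ltb4r1, a receptor for leukotriene B4, 2 and 0 counts in PD-1- against 116 and 48 in PD-1+ cells (6.46 ± 0.75, adjusted p = 4.60e-05). Igsf9b, an adhesion protein known from neurons, had 1 and 2 counts in PD-1- against 105 and 112 in PD-1+ cells (6.29 ± 0.51, adjusted p = 2.82e-07). Among genes that fell, Xkrx, of the XK family, had 72 and 35 counts in PD-1- against 0 and 0 in PD-1+ cells. By total counts without TMM factors it was at least 34.6-fold lower, against a floor of 3 counts over both PD-1+ libraries. Pik3ip1, an inhibitor of PI3 kinase, fell from 198 and 177 to 15.2 and 7.58 CPM (-4.05 ± 0.26, adjusted p = 2.84e-08), Tdrp from 209 and 284 to 9.65 and 18.5 CPM (-4.11 ± 0.28, adjusted p = 2.08e-07), Als2cl from 97.1 and 91.4 to 5.08 and 4.26 CPM (-4.32 ± 0.29, adjusted p = 3.54e-08) and Pdlim4 from 205 and 196 to 6.09 and 14.7 CPM (-4.25 ± 0.32, adjusted p = 2.08e-07). Ampd1, AMP deaminase, had 36.5 and 43.4 against 1.52 and 0.948 CPM (-4.96 ± 0.47, adjusted p = 1.39e-06) and Adcy6, an adenylate cyclase, 61.6 and 39.4 against 2.03 and 2.84 CPM (-4.35 ± 0.46, adjusted p = 3.48e-06). For each of these the 2 PD-1+ libraries lay apart from the 2 PD-1- libraries, which the choice of the largest differences required.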

How the data were processed

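Aligned reads were counted per gene symbol by the authors, who deposited the table of raw counts. The submitters' processing notes name STAR 2.5.4, featureCounts and the build mm10. No label names the strand setting, the annotation or the handling of reads shared by similar genes, and overlapping, antisense and near-identical genes are uncertain. Coordinates are from GENCODE M21 (GRCm38), which matched 49365 of 52997 symbols. Promoter windows are from RefSeq (GRCm38.p6).

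Genes passing filterByExpr on the 4 five-day libraries were tested in R 4.3.3 with edgeR 4.0.16 (TMM factors, robust quasi-likelihood F test) in 1 model of 4 groups and 8 libraries, with Benjamini-Hochberg adjustment over all 10180 tested genes. The standard error was computed from the log2 fold change and F. Total counts were 1706991 to 3019551 per library. On simulated counts for these 10180 genes, with levels pooled over all 8 libraries, only 100 genes were changed 2-fold and 100 4-fold. Of these 39 and 83 were recovered, with 10 false calls. Far fewer genes changed than were called in the data, so these shares do not measure recovery in the data.

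The comparison, the genes and the lists were chosen with earlier results of these data known. Named genes were the 15 largest differences in each direction at a mean log2 CPM of at least 4 without overlap between the populations, up to 4 members of each of 52 lists with the smallest p, members called against the direction of their list, and 26 set genes. Gene segments of receptors, pseudogenes and unnamed models were left out of the largest differences. Some genes that the rule names are not reported here. Further members were named as examples after their values were seen. Alternatives used DESeq2 1.42.0, limma 3.58.1 (voom), other size factors and filters, the 5-day libraries alone, a replicate block, and each library left out in turn.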

Additional observations from a re-analysis of the deposited data

How the results depend on the processing

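Over the fits with all 5-day libraries, 1749 (upper-quartile factors) to 2101 (replicate block) genes were called higher and 1575 (DESeq2) to 2163 (upper-quartile factors) lower. Leaving out each library in turn gave 1251 to 1680 genes higher and 1071 to 1522 lower, both lowest without PD-1+ number 2. Between 2288 (without PD-1+ number 2) and 2961 (without PD-1- number 3) of the 3914 called genes kept their call, and 0 changed sign among them. A requirement of a 2-fold difference left 1178 higher and 1334 lower. Without a filter 32576 symbols were tested, with 1963 higher and 1759 lower.

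The same-numbered libraries of the 2 populations deviated from their group means with a correlation of 0.151, or 0.091 without 5 sex-linked genes, over 2 pairs. The labels do not say that a number marks shared animals, but same-numbered libraries also shared their sex-linked expression, so that number and sex cannot be told apart. With the replicate block 2101 genes were higher and 2026 lower, and 31 against 19 genes of mitosis and 5 against 3 chemokines were called higher.

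A few genes that were not called had another sign in some settings. With upper-quartile factors Cd4 was at -0.058. With each library left out in turn Cd4 ranged from -0.056 to 0.091, Bcl6 from -0.031 to 1.327, Isg15 from -1.33 to 0.17, Prf1 from -0.347 to 2.537 and Tox from -0.022 to 0.339. In the simulation only 100 genes were changed 2-fold and 100 4-fold, whereas 3914 genes were called in the data. Its cut-off in p was therefore stricter, and 39 of 100 recovered does not measure recovery in the data. Not being called does not show a gene to be equal.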
